A study of Prunus persica with 8 samples.

Results

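The middle of peach chromosome 2, from 10 to 17 Mb, was described gene by gene in shoot tips of pillar and standard trees. Its members were the genes of the deposited table that start in this stretch and average at least 0.5 TPM over the 8 trees, with 2 genes left out by name. TPM is an expression level corrected for gene length and scaled so that the values of each library have the same sum. Of 420 genes in the stretch 255 met the minimum, out of 20055 genes with that level and 26873 genes in the whole table. The other 165 fell under it, and the genes on either side of the minimum averaged 0.502 TPM (member) and 0.4996 TPM (left out). The stretch lies between 13.2 and 6.24 Mb before TAC1, the gene whose mutation gives the pillar habit, which starts at 23.23 Mb on the same chromosome.

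RNA was taken from lateral shoot tips of 8 untreated trees, 1 library each: pillar trees 4, 7, 8 and 10 and, for comparison, standard trees 7, 8, 9 and 10. All were mature, field-grown trees of 1 segregating population, made by selfing a tree (KV991636) heterozygous for the pillar trait. In that population the methods write tac1/tac1 for pillar and TAC/TAC1 for standard trees, and no genotype of the single sequenced trees was used here. The methods describe 3 tips per tree with leaves removed and the series record 4, and the standard trees also served another study.

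Pillar trees grow narrow and upright because TAC1, which opens branch angles, is not functional. In a population from 1 selfed parent, each tree inherits its own mixture of the parent's chromosome copies, and genes on the same chromosome are passed on in blocks that recombination cuts. A gene near the selected locus therefore tends to be inherited with the habit, and a gene far from it less so. No DNA variant was read here, so the origin of each tree's chromosome segments is unknown. RNA levels in a bulk tip also cannot tell fewer cells of a type from less RNA per cell.

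The TAC1 gene (Prupe.2G194000) had 0.802, 0.83, 1.15 and 1.27 TPM in pillar trees 4, 7, 8 and 10, against 23.8, 17.2, 25.9 and 28.2 TPM in standard trees 7, 8, 9 and 10. All 8 trees thus matched their labelled habit at TAC1, standard tree 8 included. Standard tree 8 was the lowest standard tree there, so by the rule used below it lay between the pillar and the other standard trees. These RNA levels do not give the genotype of a tree. Depth was 18429259 to 23994336 recovered reads per tree, of which the members took 0.887 to 0.974%. Lane 8 held pillar trees 4 and 7, and lane 6 held the rest. Pillar tree 4 stood apart outside chromosome 2, where 129 of 17620 genes had a clear gap, defined below, between it and the other 7 trees. Markers of shoot tip tissue were not checked, because the gene names used here do not cover them.

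Most members differed little between the habits. Some members were at least 2-fold apart without standard tree 8 and had every pillar tree above or below every other standard tree. In 27 of 34 of them up to 15.65 Mb, standard tree 8 was on the pillar side. From 15.74 Mb on it lay between the pillar and the other standard trees in 4 of 6. The position that splits them was chosen after these values were seen. Among the strongly different genes were a receptor-like kinase, an ascorbate oxidase, an RNA helicase and a glutathione S-transferase gene, all higher in pillar trees, and ankyrin repeat genes, lower in pillar trees. In pillar trees 92 of the 255 were higher and 163 lower. Their log2 fold change had a median of -0.07, against -0.09 over all genes tested, of which 6153 were higher and 13902 lower. With RPKM in place of TPM the split was 105 to 150. A difference of at least 2-fold was seen for 35 members, and pillar trees had the higher level in 15 and the lower in 20. The most highly expressed member, Prupe.2G072900, had 893 to 1178 TPM in pillar trees and 878 to 1230 TPM in standard trees, so its groups overlapped widely.

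No member passed an adjusted p of 0.05 with all 8 trees by limma on log2(TPM + 0.5), Benjamini-Hochberg adjusted over all genes tested, where 0.12% of all genes did (0.0598% higher and 0.0598% lower). The lowest adjusted p was 0.136. Limma voom on recovered reads also called 0 members, with 54 at an unadjusted p under 0.05. The share of all genes tested by voom is not given here, so these voom counts describe the members only. An unadjusted p under 0.05 was found for 56 members, 20 higher and 36 lower in pillar trees, which is 22% of them, against 4.77% of all genes tested (1.86% higher and 2.91% lower). The criteria of the study, which are an unadjusted p of at most 0.05, a fold change over 1.5 and at least 5 reads on average in each group, were met by 30 members, 15 in each direction. This was 11.8% of the members, against 2.23% of all genes (1.12% higher and 1.11% lower). These p-values set the difference between the groups against the spread between single trees. With 1 library per tree, that spread also holds differences of tip sampling, library and lane.

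The groups did not overlap for 32 members, meaning that every pillar tree was above or below every standard tree. Pillar trees were above in 11 of these and below in 21, and 12 were at least 2-fold apart. They made up 12.5% of the members, against 2.93% of all genes tested (1% higher and 1.93% lower) and 2.45% of the genes on other chromosomes.

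Standard tree 8 moved the calls, and both that tree and pillar tree 4 moved the count without overlap. Without standard tree 8, limma called 22 members at an adjusted p under 0.05, 12 higher and 10 lower in pillar trees, against 0.424% of all genes (0.259% higher and 0.165% lower), and none of the 22 was called with all trees. Leaving out any other tree gave 0 calls. Standard tree 8 had already been seen to stand apart in earlier results of these data. Adjusted p-values without that tree, here and below, therefore describe these trees and are no independent test. Also without standard tree 8, 71 members did not overlap, 29 higher and 42 lower, or 27.8% of the members against 5.71% of all genes (1.98% higher and 3.73% lower) and 4.44% of those on other chromosomes. Without standard tree 7, 9 or 10 the count was 37, 37 and 35, and without pillar tree 4, 7, 8 or 10 it was 60, 37, 39 and 43. On other chromosomes the share without overlap was 5.77, 4.77 and 3.20% without standard tree 7, 9 or 10, and 13.6, 4.05, 5.03 and 4.84% without pillar tree 4, 7, 8 or 10, so the rise without pillar tree 4 was also seen there. All 22 called genes were among the 71 without overlap, and none of the 22 overlaps another gene in position.

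**Figure D1:**
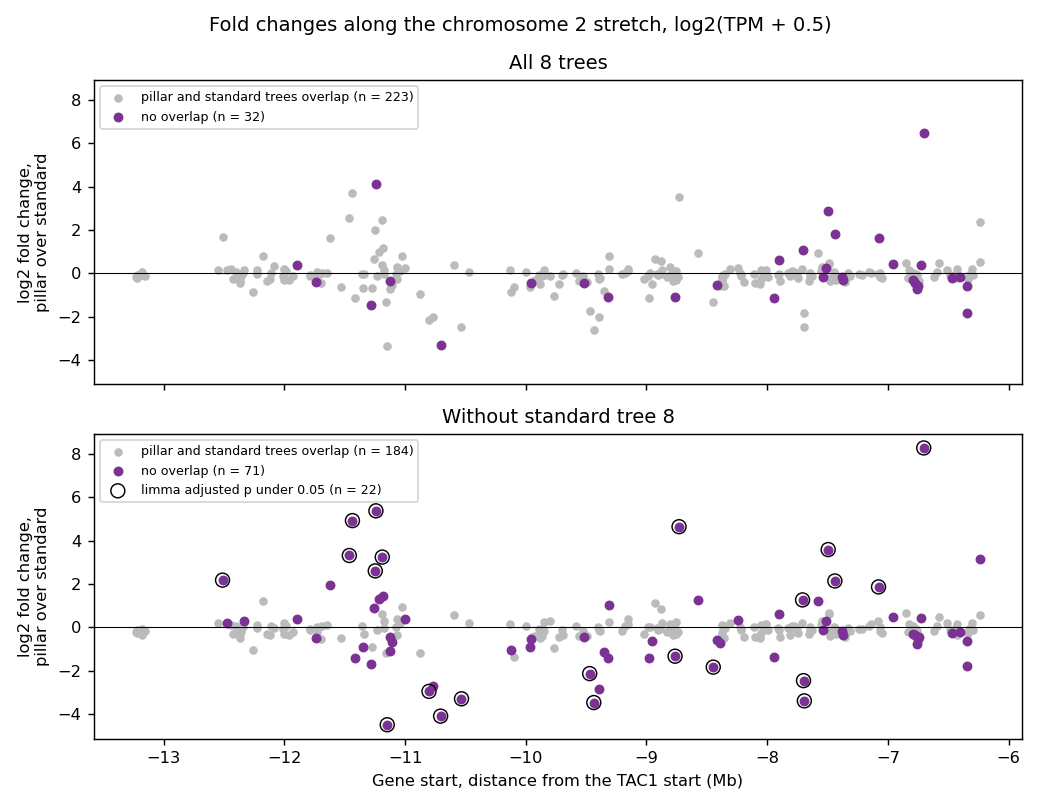
Log2 fold change of pillar over standard trees on log2(TPM + 0.5) (vertical axis) for the 255 members by distance of the gene start from the TAC1 start in Mb (horizontal axis), with all 8 trees (top) and without standard tree 8 (bottom). Purple points are members whose groups do not overlap, 32 with all trees and 71 without standard tree 8, and rings mark the 22 members with a limma adjusted p under 0.05.

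The trees of many members fell on 2 clearly spaced levels. A clear gap was counted where the largest gap between ranked log2(TPM + 0.5) values was at least 1 and was wider than the spread on either side of it. It was found for 24 members, or 9.41%, against 2.98% of all genes tested and 2.72% of those on other chromosomes. In 19 of the 24, the 4 pillar trees and standard tree 8 were on one side and standard trees 7, 9 and 10 on the other. That arrangement occurred in 0.259% of all genes tested and in 0.0568% of those on other chromosomes. Pillar trees were on the upper side in 9 of the 19 and on the lower side in 10. In no member did a clear gap separate all pillar from all standard trees, which 0.0997% of all genes tested showed.

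The 19 members start between 10722991 and 16530412, and 18 of them are among the 22 genes called without standard tree 8. The study's list of changed genes holds 11 of them and annotates 9. As those genes were chosen on the same trees, the list gives no independent support. The 19 had a median gene length of 2231 bases and a median level of 4.01 TPM, against 3616 bases and 9.55 TPM for the other members, and none overlaps another gene. All 19 differed in the same direction within lane 6, where standard tree 8 was sequenced, as over both lanes.

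**Figure D2:**
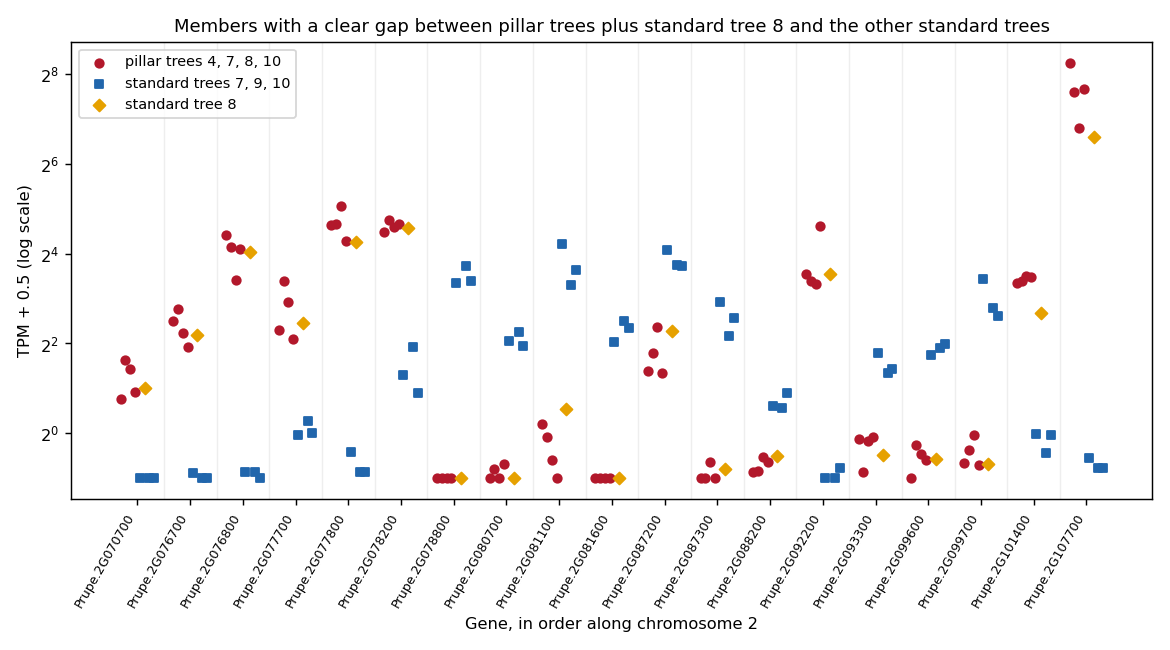
TPM + 0.5 on a log scale (vertical axis) in every tree for the 19 members, in order along chromosome 2 (horizontal axis). Standard tree 8 (yellow diamonds) is on the same side of the gap as the 4 pillar trees (red circles) in all 19, and standard trees 7, 9 and 10 (blue squares) are on the other.

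The first of these genes was Prupe.2G070700 (start 10722991, end 10723291, plus strand). It had 1.19, 2.59, 2.19 and 1.39 TPM in pillar trees 4, 7, 8 and 10, against 0, 1.51, 0 and 0 TPM in standard trees 7, 8, 9 and 10. Pillar trees and standard tree 8 rest on only 3 to 6 reads each, and no read was found in the other 3 standard trees. Its log2 fold change was 1.68 (SE 0.48, limma adjusted p = 0.771) with all trees and 2.18 (limma adjusted p = 0.0173) without standard tree 8. The other members between 10 and 11 Mb with the largest differences were smaller still. Prupe.2G072600 and Prupe.2G071700 had log2 fold changes of -0.86 and -0.46, and neither was called with or without standard tree 8.

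A cluster of strongly different genes starts between 11.77 and 12.05 Mb, and several were almost silent in standard trees 7, 9 and 10. Prupe.2G077800 (start 11993389, plus strand) is annotated as an L-ascorbate oxidase, an enzyme of the cell wall space that oxidizes ascorbate. It had 24.5, 24.9, 33 and 18.9 TPM in pillar trees 4, 7, 8 and 10. Standard tree 8 had 18.7 TPM, and standard trees 7, 9 and 10 had 0.25, 0.0496 and 0.0478 TPM. Standard tree 8 was just below the lowest pillar tree, so the groups did not overlap (exact two-sided permutation p = 0.0286, the smallest that 4 against 4 trees allow). Here and below, that p follows from the lack of overlap alone and adds no support to it. The log2 fold change was 4.14 (SE 1.04, limma adjusted p = 0.613), and 5.38 without standard tree 8 (limma adjusted p = 4.16e-05).

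Prupe.2G076800 (start 11798848), with a domain of unknown function (DUF241), had 20.9, 17.2, 10.1 and 16.6 TPM in pillar trees 4, 7, 8 and 10, against 0.0475, 16, 0.0472 and 0 TPM in standard trees 7, 8, 9 and 10. Standard tree 8 reached 98.6% of the pillar mean and lay inside the pillar range. The neighbouring Prupe.2G076700 (start 11773041) encodes a leucine-rich repeat receptor-like protein kinase, a class of membrane receptors that plants use in development and defence. It had 5.19, 6.32, 4.18 and 3.29 TPM in pillar trees, against 0.0411, 4.07, 0 and 0 TPM in standard trees 7, 8, 9 and 10. Both genes were called only once standard tree 8 was left out, with log2 fold changes of 4.93 and 3.32.

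The same order was found for an RNA helicase gene and for a resistance gene of this cluster. Prupe.2G078200, annotated as an ATP-dependent RNA helicase, an enzyme class that unwinds RNA, had 21.8, 26.5, 23.8 and 24.7 TPM in pillar trees 4, 7, 8 and 10, against 1.98, 23.2, 3.29 and 1.37 TPM in standard trees 7, 8, 9 and 10. Its neighbour Prupe.2G078300 has the same annotation, but its pillar trees ran from 2.79 to 13.4 TPM, against 1.87 to 5.02 TPM in standard trees, so its groups overlapped. The sequences of these genes were not compared, and whether reads matching both were split between them was not tested. Prupe.2G077700, a leucine-rich repeat disease resistance gene, had 4.41, 10.1, 7.15 and 3.82 TPM in pillar trees, against 0.475, 4.96, 0.707 and 0.499 TPM in standard trees 7, 8, 9 and 10. The resistance gene Prupe.2G077400 ran the other way, with 0.585 to 2.86 TPM in pillar trees and 3.13 to 8.3 TPM in standard trees, of which standard tree 8 was the lowest.

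From 12.09 Mb on, the genes with a clear gap were mostly low in pillar trees. Prupe.2G078800 (start 12086985, plus strand) had 0 TPM and no read in all 4 pillar trees and in standard tree 8, against 9.69, 12.6 and 10.1 TPM, or 115, 151 and 125 reads, in standard trees 7, 9 and 10. Prupe.2G081600 (start 12702086, plus strand) likewise had no read in the pillar trees and standard tree 8, and 3.61, 5.16 and 4.55 TPM in standard trees 7, 9 and 10. A count of 0 limits these genes to under about 3 reads per tree and does not show absence. Without standard tree 8 their log2 fold changes were -4.49 and -3.29 on the log2(TPM + 0.5) scale (limma adjusted p = 4.16e-05 and 0.000447), sizes that the added 0.5 limits. Prupe.2G080700 had at most 2 reads in any pillar tree and none in standard tree 8, against 52 to 64 reads in the other standard trees.

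All 3 members annotated as ankyrin repeat proteins, whose repeats bind other proteins, had lower levels in pillar trees (median log2 fold change -2.01). The annotations come from the study's list of genes changed in the same trees. Ankyrin genes of the stretch outside that list could not be counted here. Prupe.2G081100 (start 12529196, minus strand) had 0.658, 0.441, 0.164 and 0 TPM in pillar trees 4, 7, 8 and 10, against 18.1, 0.966, 9.38 and 12 TPM in standard trees 7, 8, 9 and 10. Standard tree 8 was close to the pillar trees but above the highest of them, so the groups did not overlap (exact permutation p = 0.0286). Its log2 fold change was -3.30 (SE 0.72, limma adjusted p = 0.386), and -4.09 without standard tree 8 (limma adjusted p = 0.00143). For Prupe.2G080900 and Prupe.2G082800 standard tree 8 lay within the pillar range.

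Between 13 and 14 Mb, pillar trees had the higher mean in 6 members and the lower in 29. Over all genes tested the lower direction was also the more frequent, with 6153 higher and 13902 lower. Standard tree 8 again shared the level of the pillar trees where the difference was largest. Prupe.2G087200 (start 13763825), a protein kinase gene, had 2.13, 2.95, 4.65 and 2.04 TPM in pillar trees 4, 7, 8 and 10, against 16.5, 4.34, 12.9 and 12.7 TPM in standard trees 7, 8, 9 and 10. Prupe.2G087300 (start 13797969), which carries no annotation here, was at 0 TPM in pillar trees 4, 7 and 10 and at 0.145 TPM in pillar tree 8, against 0.0747 TPM in standard tree 8 and 4 to 7.1 TPM in the other standard trees. Both were called without standard tree 8 (log2 fold change -2.13 and -3.47, limma adjusted p = 0.0153 and 0.000612). Prupe.2G087600, the second largest difference of this bin, lies over another gene, so its reads are uncertain. It was not called (limma adjusted p = 0.902, and 0.0621 without standard tree 8).

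Between 14 and 15 Mb the largest difference was in Prupe.2G092200 (start 14503990, plus strand), listed without annotation. It had 11.2, 9.95, 9.58 and 24.1 TPM in pillar trees 4, 7, 8 and 10, against 0, 11.3, 0 and 0.0851 TPM in standard trees 7, 8, 9 and 10. Prupe.2G093300, annotated as a PR5-like receptor kinase, a receptor whose outer domain resembles a pathogenesis-related protein, had 0.414, 0.0502, 0.383 and 0.446 TPM in pillar trees. Standard tree 8 had 0.22 TPM, and standard trees 7, 9 and 10 had 2.93, 2.05 and 2.18 TPM. A second gene with this annotation, Prupe.2G092800, was in the other direction, with 1.18 to 4.17 TPM in pillar trees, against 2.41 TPM in standard tree 8 and 0.444 to 0.971 TPM in standard trees 7, 9 and 10.

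In the same bin, OPCL1 (Prupe.2G091700), known from Arabidopsis as a CoA ligase of jasmonic acid synthesis, had 2.14, 1.55, 1.98 and 2.03 TPM in pillar trees 4, 7, 8 and 10, against 6.83, 2.83, 4.64 and 5.4 TPM in standard trees 7, 8, 9 and 10. Its groups did not overlap, and standard tree 8 was the lowest of the standard trees (log2 fold change -1.11, SE 0.24, limma adjusted p = 0.404, and 0.0377 without standard tree 8). RAT4 (Prupe.2G090000), a sugar transferase placed with cell wall genes in that list, had 0.702 to 1.66 TPM in pillar trees, against 1.6 TPM in standard tree 8 and 3.5 to 4.66 TPM in the others. It was not called in either fit.

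Between 15.53 and 15.65 Mb standard tree 8 was still on the pillar side for the genes of low expression. Prupe.2G099700 (start 15541608, minus strand) had 0.128, 0.278, 0.472 and 0.113 TPM in pillar trees 4, 7, 8 and 10, against 10.3, 0.122, 6.41 and 5.6 TPM in standard trees 7, 8, 9 and 10. Its neighbour Prupe.2G099600 (start 15534762) had at most 0.337 TPM in pillar trees, against 0.177 TPM in standard tree 8 and 2.84 to 3.49 TPM in standard trees 7, 9 and 10. Both were called without standard tree 8. SKP1-like 4 (Prupe.2G099500, start 15526928), a subunit type of ubiquitin ligases, had 51.8, 39.9, 33.6 and 47.2 TPM in pillar trees, against 15, 31.7, 17.2 and 20.2 TPM in standard trees 7, 8, 9 and 10, so here standard tree 8 was in between. Prupe.2G100700 (start 15653206), listed without annotation, was the last member at least 2-fold apart before 15.74 Mb, with 0.854 to 3.21 TPM in pillar trees, against 1.5 TPM in standard tree 8 and 0.403 to 0.441 TPM in the others.

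From 15.74 Mb on, which is 7.49 Mb before TAC1, standard tree 8 lay between the pillar trees and the other standard trees in 4 of the 6 members that were at least 2-fold apart without it. The first such gene was the glutathione S-transferase gene GSTU7 (Prupe.2G101400, start 15739190, plus strand), of an enzyme family that couples glutathione to reactive or foreign compounds. It had 9.68, 9.98, 10.9 and 10.6 TPM in pillar trees 4, 7, 8 and 10, against 0.49, 5.87, 0.243 and 0.468 TPM in standard trees 7, 8, 9 and 10. The 4 pillar trees were within a narrow range, and standard tree 8 was at 57.1% of their mean. The log2 fold change was 2.88 (SE 0.60, limma adjusted p = 0.337, exact permutation p = 0.0286), and 3.59 without standard tree 8 (limma adjusted p = 7.94e-05). The other gene named GSTU7, Prupe.2G101600, had 42.6 to 169 TPM in pillar trees and 47.6 to 104 TPM in standard trees, so its groups overlapped.

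Prupe.2G102000 (start 15794456), which carries no annotation here, had 2.47, 1.64, 2.28 and 1.33 TPM in pillar trees 4, 7, 8 and 10, against 0.128, 0.786, 0 and 0 TPM in standard trees 7, 8, 9 and 10. Standard tree 8 was at 40.7% of the pillar mean. Prupe.2G104600 (start 16156046), a second leucine-rich repeat receptor-like protein kinase gene, had 15.5, 15.4, 11.1 and 12 TPM in pillar trees, against 4.54, 6.88, 2.78 and 2.81 TPM in standard trees 7, 8, 9 and 10, with standard tree 8 at 50.9% of the pillar mean. It had the lowest adjusted p of the members with all trees (log2 fold change 1.63, SE 0.27, limma adjusted p = 0.136, and 0.00955 without standard tree 8).

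The largest difference of the whole stretch was in Prupe.2G107700 (start 16530412, minus strand), listed without annotation. It had 303, 195, 112 and 204 TPM in pillar trees 4, 7, 8 and 10, from 3757 to 9400 reads. Standard tree 8 had 95.7 TPM, and standard trees 7, 9 and 10 had 0.181, 0.0897 and 0.0864 TPM, from 3 to 6 reads. The gene was thus abundant in 5 trees and near silent in 3, and standard tree 8 was at 47.1% of the pillar mean. The log2 fold change was 6.46 (SE 1.51, limma adjusted p = 0.49, exact permutation p = 0.0286), and 8.28 without standard tree 8 (limma adjusted p = 1.78e-05).

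Near the end of the stretch, standard tree 8 was also found with its own group. The nitrate transporter gene NRT1.5 (Prupe.2G110400, start 16884794), known from Arabidopsis for loading nitrate into the xylem, had 1.01, 1.27, 0.493 and 2.21 TPM in pillar trees 4, 7, 8 and 10, against 2.67, 6.25, 4.69 and 10.5 TPM in standard trees 7, 8, 9 and 10. Standard tree 8 was the second highest of all trees, and the groups did not overlap (log2 fold change -1.85, SE 0.41, limma adjusted p = 0.425, exact permutation p = 0.0286, and limma adjusted p = 0.417 without standard tree 8). The last of the strongly different members, Prupe.2G111600 (start 16993968), had 7.57, 0.359, 8.21 and 6.09 TPM in pillar trees, against 0, 4.09, 0 and 0 TPM in standard trees 7, 8, 9 and 10. Pillar tree 7 had 1 read of it, so the pillar trees also disagreed, and it was not called in either fit.

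The place of a tree that was left out was read against the other 7 trees, which does not use its own value to choose the genes. Of the 71 members separated without standard tree 8, that tree was on the pillar side for 39, between the groups for 19 and on the standard side for 13. Among the 40 of these that were at least 2-fold apart, the counts were 28, 11 and 1. Standard trees 7, 9 and 10, left out in turn, were on their own side for 9 of 10, 10 of 11 and 11 of 11 such members. Pillar trees 4, 7, 8 and 10 were on their own side for 8 of 16, 11 of 15, 8 of 15 and 8 of 16. In the counts for these 7 trees standard tree 8 remained among the standard trees, so members at which it has the pillar level are mostly not among them, and the genes counted are not the same 40. On other chromosomes standard tree 8 was on its own side for 38 of 96 such genes, between for 15 and on the pillar side for 43.

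**Figure D3:**
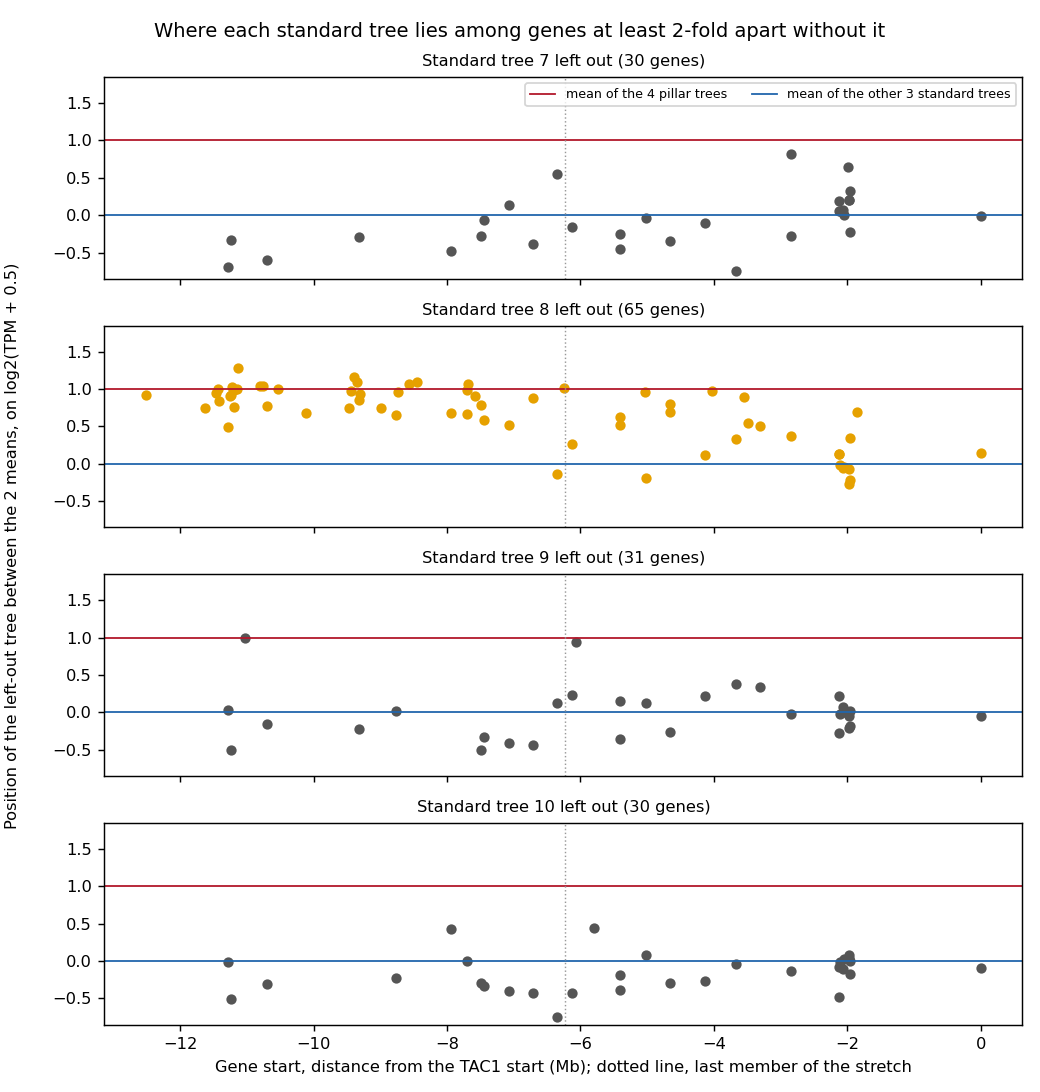
Position of each standard tree, left out in turn, between the mean of the other 3 standard trees (0, blue line) and the mean of the 4 pillar trees (1, red line) on log2(TPM + 0.5), for genes at least 2-fold apart and not overlapping without it, against distance from the TAC1 start in Mb, and with values beyond the axis drawn at its edge. Standard tree 8 (yellow, second panel) lies near 1 over most of the stretch, which ends at the dotted line, and at 0.14 at TAC1 itself.

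The place of standard tree 8 was not the same along the stretch. Counted here are members at least 2-fold apart and not overlapping without it. Of the 34 up to 15.65 Mb, it was on the pillar side for 27, between for 7 and on the standard side for none. Of the 6 that start from 15.74 Mb on, it was on the pillar side for 1, between for 4 and on the standard side for 1. The class between covers any place outside both ranges. At TAC1 itself standard tree 8 was also between, though near the other standard trees. Where such members were higher in pillar trees, standard tree 8 reached 53.1 to 99.6% of the pillar mean up to 15.65 Mb (median 82.1%, 14 genes) and 40.7 to 73.5% after it (median 50.9%, 5 genes). On log2(TPM + 0.5), its share of the way from the other standard mean to the pillar mean was 0.498 to 1.28 up to 15.65 Mb (median 0.944). After it the share was -0.142 to 1.01 (median 0.687), so the ranges overlapped. GSTU7 (Prupe.2G101400) and Prupe.2G107700, both counted as between, had standard tree 8 on the pillar side of their clear gap. The position of 15.65 Mb was chosen after these values were seen, and 6 genes after it are few, so this is a description with no test.

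The share of members without overlap was highest in the last bins. By 1 Mb bin it was 0 of 20, 4 of 37, 2 of 25, 3 of 35, 2 of 38, 9 of 54 and 12 of 46, from the 10 to 11 Mb bin to the 16 to 17 Mb bin. Up to 15.65 Mb the groups did not overlap for 14 of 189 members (7.41%), and in 11 of the 14 standard tree 8 was between the pillar and the other standard trees and in 3 on the standard side. From there on they did not overlap for 18 of 66 (27.3%), and standard tree 8 was between in 8 and on the standard side in 10. Members without overlap have every standard tree outside the pillar range, so standard tree 8 could not be on the pillar side in these counts. The position of 15.65 Mb was chosen by the place of that tree, so the difference between these shares is in part built in by that choice. Of all genes tested, 2.93% did not overlap. Without standard tree 8 the counts by bin were 3, 11, 12, 10, 9, 12 and 14, so with that tree aside the separation did not start at 15.65 Mb. In the first bin only 1 of the 3 was at least 2-fold apart, Prupe.2G070700, which rests on few reads. The next such member, Prupe.2G076200, starts at 11.61 Mb.

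**Figure D4:**
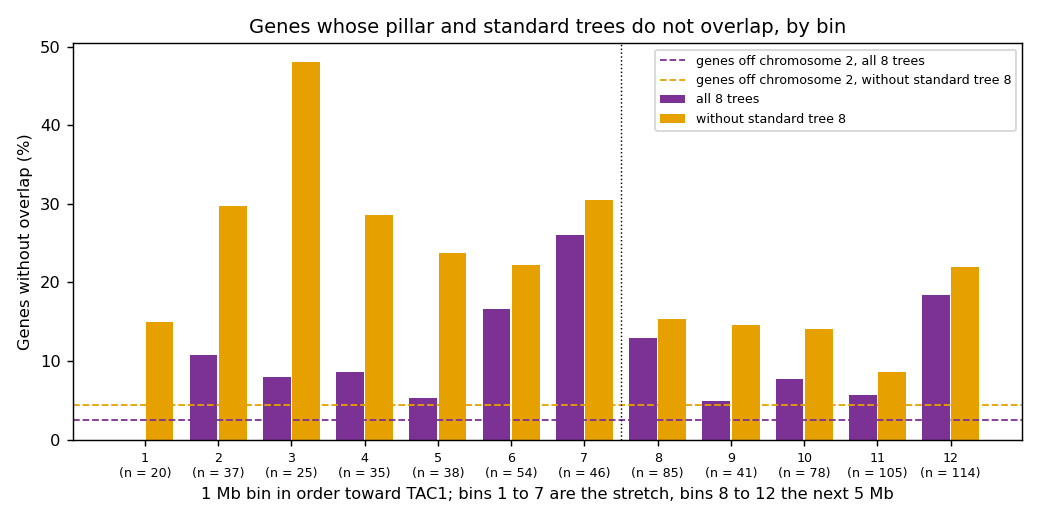
Percentage of genes whose pillar and standard trees do not overlap (vertical axis) in 1 Mb bins in order toward TAC1 (horizontal axis, n = genes tested), with all 8 trees (purple) and without standard tree 8 (yellow), where dashed lines give genes on other chromosomes. With all trees the share was 0% in the first bin and 26.1% in the seventh, and without standard tree 8 it was 15% and 30.4%, with the highest share, 48%, in the third.

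Of the 12 members that did not overlap in the last bin, 3 were at least 2-fold apart, and the others differed less. Prupe.2G107400 had 93.3 to 149 TPM in pillar trees, against 155, 205, 210 and 202 TPM in standard trees 7, 8, 9 and 10. The glutamate receptor gene GLR1.4 (Prupe.2G105400) had 6.21 to 8.73 TPM in pillar trees and 4.63 to 5.94 TPM in standard trees, and a methyltransferase gene, Prupe.2G107200, had 0.282 to 0.494 TPM in pillar trees and 0.765 to 1.3 TPM in standard trees. Standard tree 8 lay among the standard trees in all 3, and none was called with or without it.

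Over all members, whatever the size of their difference, the standard tree closest to the pillar mean was tree 8 for 120 of 255, or 47.1%, against 30.3% of all genes tested and 29.7% of those on other chromosomes. Standard trees 7, 9 and 10 were nearest for 47, 49 and 39 members. By bin, standard tree 8 was nearest for 10 of 20, 20 of 37, 17 of 25, 14 of 35, 18 of 38, 25 of 54 and 16 of 46 members.

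The neighbouring stretches gave other counts, with no test of the difference. In the first 10 Mb of the chromosome, 3.85% of 493 genes did not overlap with all trees and 29.2% without standard tree 8. Of the latter, 88 were at least 2-fold apart, and standard tree 8 was on the pillar side for 82. From 17 to 22 Mb, 10.9% of 423 genes did not overlap with all trees and 15.1% without it, and it was on the pillar side for 6, between for 7 and on its own side for 11 of 24 such genes. A clear gap between all pillar and all standard trees was first found at Prupe.2G112900 (start 17113525), just past the stretch. It had 0.136, 0, 0.126 and 0.072 TPM in pillar trees 4, 7, 8 and 10, against 3.75, 1.87, 2.03 and 5.36 TPM in standard trees 7, 8, 9 and 10, with standard tree 8 lowest of its group but well above every pillar tree.

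Of the members annotated in the study's list, 4 receptor kinase genes had 3 higher and 1 lower in pillar trees (median log2 fold change 1.28), 3 disease resistance genes had 2 higher and 1 lower (median 0.52), 3 redox genes were all higher (median 2.88) and both RNA helicase genes were higher (median 1.81), against a median of -0.09 over all genes tested. None of these genes was called with all 8 trees. The study's cell wall category held 3 members, 2 higher and 1 lower in pillar trees (Prupe.2G076700, Prupe.2G104600 and RAT4), while the annotation words for cell wall and wax genes matched none. The study chose these genes on the same trees, so the directions are a description of the trees.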

How the data were processed

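Single 50-bp reads of 8 libraries were trimmed by the authors and aligned with CLC Genomics Workbench (version not given in the sources used here; peach genome version 2), and the authors deposited 1 table of TPM per gene and tree. TPM are scaled to the length of the gene region. Columns with the authors' own comparison of pillar and standard trees (fold changes, p-values) were not used, and no other sample's column was present. TPM multiplied by gene length gave whole reads (within 0.05) for 100% of nonzero values under 10000 reads in every tree, so reads were recovered from the TPM and used for depth and read minimums. A read could match several places, so near copies may share reads, and the counting is not stated to use strand.

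The 20055 genes averaging 0.5 TPM or more were tested on log2(TPM + 0.5) with the limma package (version 3.58.1, run under R 4.3.3), using lmFit and an eBayes step with trend, with Benjamini-Hochberg adjustment over all of them. Fold changes are pillar over standard on this scale, which understates changes of low genes. Single genes were tested with a two-sided exact permutation test (scipy 1.17.1), whose smallest p is 0.0286. Every gene whose groups do not overlap has this p, and it is given only for such genes. The limma fit was tested on simulated data. Figures used matplotlib 3.10.9.

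Genes were named by rule: those with an adjusted p under 0.05, the 3 largest log2 fold changes of each 1 Mb bin, the first and last gene of each clear-gap arrangement seen in 3 or more members, and examples annotated in the study's own list of changed genes. Other genes named (Prupe.2G072900, Prupe.2G080700, Prupe.2G102000, Prupe.2G107400, Prupe.2G100700, Prupe.2G112900) were picked after their values were seen. The members and gene lists were chosen with earlier results of these data known. Alternatives were other scalings, pseudocounts, filters and thresholds, limma voom on recovered reads, each tree left out, lane 6 only, the tree number as a block and no overlapping genes. No DNA sequence was used here.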

Additional observations from a re-analysis of the deposited data

Results flagged for a closer look

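In 42 groups of 4 trees, which are both habits of the 21 genes named by rule, 17 single trees lay far from the other 3 of their group, by a gap that takes more of the group's range than Dixon's 95% limit for 4 values allows. For normally distributed values chance flags about 1 in 20 groups, a rate that need not hold for TPM with values of 0. A single nonzero tree among trees at 0, as for Prupe.2G070700, is always flagged. Standard tree 8 accounts for 12 of the 17, pillar tree 7 for 2, pillar tree 8 for 2 and pillar tree 10 for 1. As the genes were named partly for large differences, the flags are a description.

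Standard tree 8 stood above the other standard trees with 1.512 TPM of Prupe.2G070700, 4.07 TPM of Prupe.2G076700, 15.96 TPM of Prupe.2G076800, 18.66 TPM of Prupe.2G077800, 11.26 TPM of Prupe.2G092200, 5.869 TPM of Prupe.2G101400, 95.69 TPM of Prupe.2G107700 and 4.085 TPM of Prupe.2G111600. It stood below them with 0 TPM of Prupe.2G078800, Prupe.2G081600 and Prupe.2G087600 and with 0.1774 TPM of Prupe.2G099600. Of these genes only Prupe.2G077800, Prupe.2G101400 and Prupe.2G107700 kept it outside the pillar range on the standard side.

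Among the pillar trees, tree 7 stood below the others with 0.05015 TPM of Prupe.2G093300 and 0.3587 TPM of Prupe.2G111600. Pillar tree 8 stood above the others with 0.1446 TPM of Prupe.2G087300 and 1.216 TPM of Prupe.2G087600. Pillar tree 10 stood above the others with 24.12 TPM of Prupe.2G092200.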

How the results depend on the processing

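The 21 genes named by rule kept their direction in all 352 refits of single genes, and 15 became called, all of them without standard tree 8. Of 89 alternative counts of members 83 stayed within 1.5 times their main value. Calls at an adjusted p under 0.05 ranged from 0 to 22 with each tree left out, and 22 was reached without standard tree 8 only. With an unadjusted p under 0.05 in its place the count was 56. Members without overlap, 32 with all trees, ranged from 35 to 71 with each tree left out, where 71 is without standard tree 8 and 60 without pillar tree 4, and reached 93 in lane 6 only. Fewer trees make overlap rarer by construction, and in lane 6 only 28.6% of all genes tested did not overlap and without pillar tree 4 14% did not. Members with a clear gap between the habits ranged from 0 to 21, where 21 is without standard tree 8. The criteria of the study gave 22 to 34 members with each tree left out, 24 with RPKM, and 20 both with p at most 0.01 and with a fold change over 2. For these clear-gap and criteria counts no share of all genes tested at the same setting is given here, so they describe the members only. Same-numbered trees did not consistently deviate together (correlation 0.29 for number 7, 0.096 for number 8 and -0.091 for number 10). Only for number 7 was the same-numbered standard tree the one that best matched the pillar tree. The numbers were therefore not taken as pairs. With the tree number as a replicate block, 0 members had an adjusted p under 0.05 and 34 met the criteria. Where 1 to 6 reads carry a value, as in Prupe.2G070700, depth limits it. RPKM and an upper-quartile scaling gave a median log2 fold change over all genes of -0.05, against -0.09 with TPM.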
